A study of Mus musculus with 24 samples.

Results

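The effect of growth hormone (GH) was measured in the hypothalamus of mice at day 3 after a lesion of the pituitary stalk made with current (pituitary stalk electrical lesion, PEL), as 3 libraries of GH-treated lesioned mice (PEL_3d_GH) against 3 libraries of lesioned mice (PEL_3d). These 6 samples were taken by their labels from the 24 samples of the series, which also holds Sham hypothalamus, PEL hypothalamus at day 10, GH-treated groups of both, and hippocampus. In the model, a blade placed stereotaxically at the stalk passes current and cuts the fibre tract from the hypothalamus to the posterior pituitary, and both groups carried this lesion. The mice were male and of the C57BL/6J strain. The dose, route and schedule of GH are not given in the sources used here, and no vehicle injection is named for the PEL_3d group. The labels do not say that the libraries of a group came from separate animals, so that p-values measure only the spread between these samples.

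GH binds its receptor Ghr, which activates the kinase Jak2 and the transcription factors Stat5a and Stat5b. These enter the nucleus and switch on genes such as Igf1, the main growth factor made in response to GH, and the feedback inhibitors Cish, Socs2 and Socs3. In the hypothalamus GH also acts back on the neurons that make its releasing hormone (Ghrh) and its inhibitor somatostatin (Sst). The same tissue holds tanycytes, which line the floor of the third ventricle, and microglia, its resident macrophages, which take up debris after a lesion.

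Between 15691068 and 16317144 counts were listed for each PEL_3d library and between 15804115 and 17859115 for each PEL_3d_GH library. Levels below are CPM, counts scaled to a common library size with TMM factors, and differences are log2 fold changes of PEL_3d_GH over PEL_3d from edgeR's quasi-likelihood test, adjusted by Benjamini-Hochberg over 14798 genes. Hypothalamic genes were present in all 6 libraries. Nkx2-1, a transcription factor of the hypothalamic field, lay between 14.3 and 20.01 CPM, and Pmch, which encodes melanin-concentrating hormone, lay between 364 and 529 CPM. No pair of libraries was identical, and chi-square per degree of freedom within groups was 4.28 to 20.5. In tissue sequenced whole, fewer cells of a type and less RNA per cell cannot be told apart.

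With GH, 4 genes rose and 0 fell at an adjusted p under 0.05, which is 0.027% and 0% of the genes tested. They were Zbtb16, Gpr50, Socs2 and Fam107a, with rises of 1.46-fold to 3.75-fold. At an unadjusted p under 0.05, 571 genes were higher (3.86%) and 435 lower (2.94%), and DESeq2 called 48 higher and 9 lower. The 3 GH values lay above all 3 PEL_3d values for 924 genes (6.24%) and below them for 858 (5.8%). The median log2 fold change over all genes was 0.0061, and 51.6% of genes lay above 0. The biological coefficient of variation was 11.1%, and the median SD of log2 CPM was 0.116 in PEL_3d and 0.145 in PEL_3d_GH.

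Zbtb16 encodes a zinc-finger transcription repressor that glucocorticoids are known to induce. Its gene spans chr9:48654297-48836222 on the minus strand of GRCm38 (ENSMUSG00000066687). It was at 7.83, 6.93 and 6.13 CPM in PEL_3d and at 25.2, 27.3 and 26.0 CPM in PEL_3d_GH. The groups were far apart and each was tight, with means of 6.97 ± 0.85 and 26.2 ± 1.0 CPM (SD, n = 3). The log2 fold change was 1.91 with a standard error (SE) of 0.12 and a 95% interval of 1.63 to 2.18 (edgeR adjusted p = 0.000777).

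Gpr50 encodes an orphan receptor related to the melatonin receptors and is a marker of tanycytes. It lies at chrX:71663667-71669257 on the plus strand (ENSMUSG00000056380). Its levels were 15.6, 15.2 and 12.6 CPM without GH and 33.0, 36.5 and 33.5 CPM with GH, a log2 fold change of 1.24 (SE 0.11, edgeR adjusted p = 0.00673). Every GH library was above every library without GH.

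Socs2, the suppressor of cytokine signalling that dampens the GH receptor and is itself a STAT5 target, lies at chr10:95385362-95417180 on the minus strand (ENSMUSG00000020027). It was at 7.11, 9.22 and 7.06 CPM in PEL_3d and at 17.9, 16.7 and 17.3 CPM in PEL_3d_GH. The groups did not overlap, and the log2 fold change was 1.15 (SE 0.14, edgeR adjusted p = 0.0469).

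Fam107a encodes an actin-associated protein known to be induced by stress and glucocorticoids, and lies at chr14:8296274-8318023 on the minus strand (ENSMUSG00000021750). It was at 178, 185 and 182 CPM in PEL_3d and at 259, 262 and 275 CPM in PEL_3d_GH. This was the smallest of the called differences and had the smallest SE, with a log2 fold change of 0.55 (SE 0.06, edgeR adjusted p = 0.0469). Per length, in the authors' FPKM, Fam107a was the most abundant of the 4 genes, with a mean level of 60.7 in PEL_3d and 88.3 in PEL_3d_GH, and Zbtb16 the least, with mean levels of 1.61 and 5.77. No annotated gene overlapped any of the 4. In 1 fit of all 18 hypothalamic libraries none of the 4 passed (adjusted p = 0.745 for Zbtb16 and Fam107a, and 0.9995 for Gpr50 and Socs2, edgeR). That fit includes the library labelled Sham 1, which stood far from the other Sham libraries. The log2 fold changes in it were close to those above, at 1.897 for Zbtb16, 1.235 for Gpr50, 1.142 for Socs2 and 0.5385 for Fam107a. Zbtb16 remained past the threshold when any 1 of the 6 libraries was left out. Fam107a remained past it only without PEL_3d_GH 3, Socs2 without PEL_3d 2 or PEL_3d_GH 3, and Gpr50 in all cases but without PEL_3d 1 (adjusted p = 0.0629) or PEL_3d_GH 1 (adjusted p = 0.0577).

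**Figure D1:**
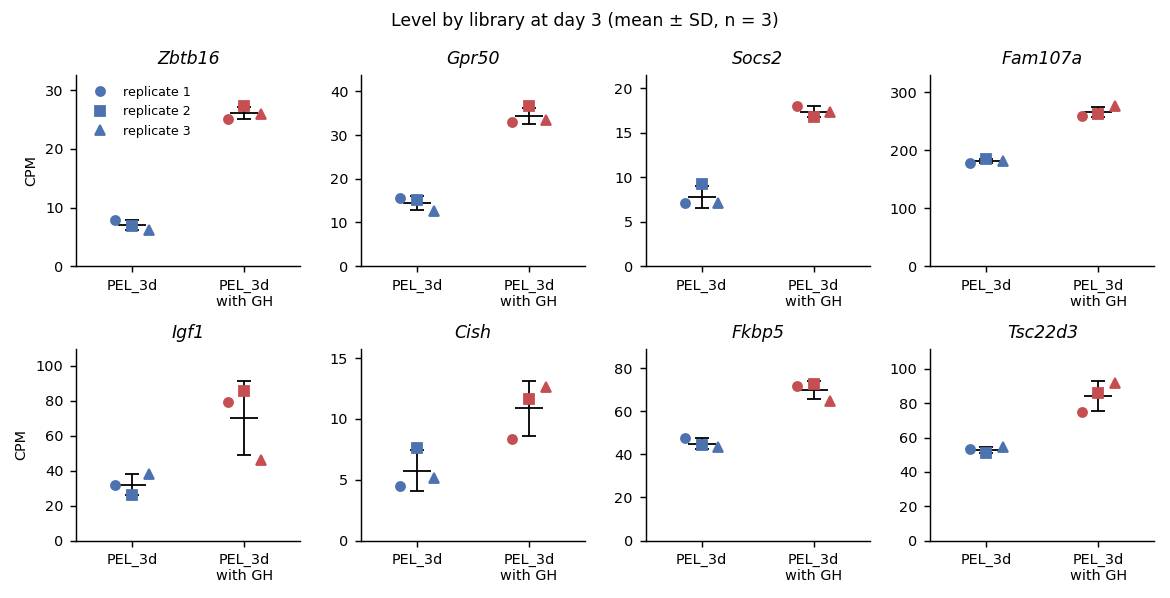
CPM of 8 genes in each of the 6 libraries, on axes that start at 0, with PEL_3d on the left and PEL_3d_GH on the right of each panel. Circles, squares and triangles are replicates 1, 2 and 3, and the groups of Zbtb16, Gpr50, Socs2 and Fam107a lie clear of each other while Igf1 in PEL_3d_GH 3, at 46.0 CPM, lies close to the highest library without GH, at 38.0 CPM.

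The receptor and the relay that carry the GH signal were at like levels in both groups. Ghr was at 25.1, 22.5 and 26.4 CPM without GH and at 22.9, 24.3 and 23.2 CPM with GH, a log2 fold change of -0.07 (95% interval -0.29 to 0.15). Jak2 was at 60.9 to 62.0 CPM without GH and 58.5 to 62.8 CPM with GH. Log2 fold changes were -0.05 for Stat5a, 0.00 for Stat5b and 0.02 for Igf1r, the receptor of Igf1. Of 20 genes listed for the GH receptor and its JAK-STAT relay, 0 passed the adjusted threshold in edgeR or in DESeq2. In this list, 1 was higher at an unadjusted p under 0.05, Pik3r1, the regulatory subunit of PI3 kinase, at a log2 fold change of 0.25, and the list's median was -0.01.

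Among the targets of that relay, 18 of 20 listed GH and STAT5 target genes were tested. Socs2 was called (3 genes in DESeq2), and the median log2 fold change was 0.09. At an unadjusted p under 0.05, 5 were higher and 1 lower (27.8% and 5.56%, beside 3.86% and 2.94% of all genes). Igf1 was at 31.5, 26.0 and 38.0 CPM without GH and at 79.2, 85.4 and 46.0 CPM with GH. Its groups did not overlap, but PEL_3d_GH 3 was far below the other two GH libraries. The log2 fold change of Igf1 was 1.14 (SE 0.22, 95% interval 0.64 to 1.63) and did not pass in edgeR (adjusted p = 0.286), whereas it passed in DESeq2 (adjusted p = 6.585e-05) and in edgeR without PEL_3d_GH 3 (adjusted p = 0.007538).

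Cish, an SH2-domain inhibitor of cytokine receptors and a STAT5 target, was at 4.46, 7.63 and 5.14 CPM without GH and at 8.31, 11.6 and 12.7 CPM with GH. Again the groups did not overlap, and the log2 fold change of 0.92 (SE 0.23) did not pass (edgeR adjusted p = 0.465). Socs3 was at a log2 fold change of -0.19 (SE 0.18) and Bcl6, a repressor that STAT5 is known to switch off, at -0.33 (SE 0.15). Of 17 tested genes of the IGF axis, 3 were higher and 0 lower at an unadjusted p under 0.05 (17.6% and 0%), with a median log2 fold change of 0.17. Beside Igf1 these were Igf2, at 204, 124 and 177 CPM without GH and 262, 328 and 197 CPM with GH, and Igfbp5, a binding protein of the IGFs, at 451, 384 and 391 CPM without GH and 584, 653 and 447 CPM with GH. For both, PEL_3d_GH 3 lay within the range of the libraries without GH.

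Most glucocorticoid-responsive genes had a log2 fold change above 0. All 23 listed genes were tested, Zbtb16 was called (9 genes in DESeq2), and 16 were higher and 0 lower at an unadjusted p under 0.05 (69.6% and 0%, beside 3.86% and 2.94% of all genes). The median log2 fold change was 0.49, 21 of 23 lay above 0, and in 15 the groups did not overlap (65.2% of the list, beside 6.24% of all genes not overlapping and higher). Their summed level was 1044, 1026 and 1012 CPM in PEL_3d and 1470, 1505 and 1382 CPM in PEL_3d_GH. All 3 GH libraries were thus higher by a similar amount, and leaving out any 1 library left 12 to 16 members higher at an unadjusted p under 0.05.

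Fkbp5, a co-chaperone that restrains the glucocorticoid receptor, was at 47.7, 44.1 and 43.3 CPM without GH and at 71.9, 72.8 and 64.9 CPM with GH (log2 fold change 0.63, edgeR adjusted p = 0.0573). Tsc22d3, which encodes the glucocorticoid-induced leucine zipper protein, was at 53.5, 51.0 and 54.3 CPM and at 74.8, 86.1 and 92.1 CPM (log2 fold change 0.67, edgeR adjusted p = 0.0626). Both stood just outside the threshold with groups that did not overlap. The metallothioneins, which bind zinc and copper, were also higher in every GH library. Mt1 was at 190 to 234 CPM without GH and 289 to 331 CPM with GH, and Mt2 at 172 to 221 CPM and 253 to 314 CPM, at log2 fold changes of 0.58 and 0.60. Sgk1, a kinase that regulates ion channels, was at 118, 77.5 and 104 CPM without GH and 158, 182 and 179 CPM with GH. Plin4, a lipid droplet protein, and Hif3a, a hypoxia-inducible factor subunit, were at log2 fold changes of 1.13 and 1.30. Klf9 was at 0.49, the clock gene Per1 at 0.37 and Map3k6 at 0.85. None of these passed the adjusted threshold in edgeR, whereas Fkbp5, Tsc22d3, Mt1, Mt2, Sgk1, Plin4, Hif3a and Klf9 passed in DESeq2 (adjusted p between 1.50e-06 and 0.0195). Nr3c1, the glucocorticoid receptor itself, was at 129, 129 and 126 CPM without GH and 123, 130 and 117 CPM with GH. Corticosterone is not among the measurements used here. Mt2 and Cdkn1a stand in both this list and that of the GH and STAT5 targets.

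The promoter windows of the called gene Fam107a, of Mt1 and Map3k6 from the glucocorticoid list, and of Cish are shown as examples that hold the letters of motifs known for the glucocorticoid receptor and for STAT5. They are from RefSeq (GRCm38.p6), run from 250 bases before to 50 bases after a gene's start on the gene's strand, and were found for 2 of the 4 called genes. Zbtb16 and Socs2 had none. Capitals mark a match to GNACANNNTGTNC, a glucocorticoid response element-like pattern, in Fam107a (chr14:8309730-8310029, minus strand), Mt1 (chr8:94178839-94179138, plus strand) and Map3k6 (chr4:133240568-133240867, plus strand), and to TTCNNNGAA, the STAT recognition pattern, in Cish (chr9:107296409-107296708, plus strand).
Fam107a: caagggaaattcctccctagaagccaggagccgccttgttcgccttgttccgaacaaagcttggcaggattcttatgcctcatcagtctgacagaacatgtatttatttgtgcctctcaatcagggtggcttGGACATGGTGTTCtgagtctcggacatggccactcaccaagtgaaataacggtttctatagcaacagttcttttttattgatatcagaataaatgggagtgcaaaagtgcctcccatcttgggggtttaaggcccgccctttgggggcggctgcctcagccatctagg
Mt1: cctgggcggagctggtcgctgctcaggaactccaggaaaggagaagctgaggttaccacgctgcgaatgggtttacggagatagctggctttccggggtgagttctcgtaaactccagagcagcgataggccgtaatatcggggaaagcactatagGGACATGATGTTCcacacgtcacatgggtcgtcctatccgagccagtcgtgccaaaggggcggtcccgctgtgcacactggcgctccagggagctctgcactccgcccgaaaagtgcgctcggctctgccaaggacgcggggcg
Map3k6: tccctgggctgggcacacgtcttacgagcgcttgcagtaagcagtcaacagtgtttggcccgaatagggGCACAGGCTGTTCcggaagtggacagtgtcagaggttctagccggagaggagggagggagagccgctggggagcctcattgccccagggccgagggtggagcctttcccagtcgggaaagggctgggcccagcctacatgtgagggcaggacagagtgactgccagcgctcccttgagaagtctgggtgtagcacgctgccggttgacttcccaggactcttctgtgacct
Cish: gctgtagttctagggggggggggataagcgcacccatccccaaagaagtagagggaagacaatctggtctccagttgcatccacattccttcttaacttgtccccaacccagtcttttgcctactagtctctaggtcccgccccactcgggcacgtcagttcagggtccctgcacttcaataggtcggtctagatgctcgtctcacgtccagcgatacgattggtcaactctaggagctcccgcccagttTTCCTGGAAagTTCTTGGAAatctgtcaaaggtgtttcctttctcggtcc

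Both patterns are their own reverse complement, so that 1 search covers both strands. The other motif was matched in none of these 4 windows. The match begins 118 bases before the start in Fam107a, 94 in Mt1 and 181 in Map3k6, and the pair in Cish begin 1 and 12 bases after it. GNACANNNTGTNC was found in 0.475% of all 32851 windows and in 3 of the 20 glucocorticoid-responsive genes with a window, Map3k6, Mt1 and Sgk1. Of the 3 windows of Fam107a, 2 held it, and Gpr50 held neither motif. TTCNNNGAA was found in 8.3% of all windows, and in 3 of 14 GH and STAT5 target genes with a window (21.4%), Bcl6, Cish and Socs3. It was also in 4 of the 20 glucocorticoid-responsive genes (20%), Klf9, Per1, Sgk1 and Tsc22d3 against 3 of 20 (15%) for GNACANNNTGTNC. GNACANNNTGTNC was in 1 of the 14 GH and STAT5 target genes (7.14%), Serpina3n. Counted per gene, 9.55% of all genes with a window held TTCNNNGAA and 0.537% held GNACANNNTGTNC. A match of letters shows neither binding nor use.

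Among the genes nearest to the threshold that belong to neither group was Slc2a1, the glucose transporter of the blood-brain barrier, at 143, 129 and 129 CPM without GH and 188, 207 and 194 CPM with GH (log2 fold change 0.55, edgeR adjusted p = 0.0626). An antisense gene overlaps an exon of Slc2a1, and whether counting used strand is not stated. Lag3, a checkpoint receptor also made by microglia, was at 5.66, 5.72 and 4.15 CPM without GH and 11.7, 11.2 and 11.99 CPM with GH (log2 fold change 1.17, edgeR adjusted p = 0.0746). Adipor2, a receptor for adiponectin, was at a log2 fold change of 0.47. These values were closely grouped within each condition.

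Of the genes lower with GH, Chil1, a chitinase-like protein of reactive astrocytes, had the lowest p. It was at 30.7, 33.1 and 32.3 CPM without GH and at 19.2, 22.4 and 19.0 CPM with GH, a log2 fold change of -0.67 (SE 0.10, edgeR adjusted p = 0.116). Slc6a3, the dopamine transporter, was at 7.71, 11.6 and 7.31 CPM without GH and 2.56, 3.87 and 3.01 CPM with GH, a log2 fold change of -1.49 (SE 0.24, edgeR adjusted p = 0.121). The groups did not overlap in either gene. The next genes by p were Zkscan2 (a zinc-finger protein) at -0.49, Fam205a2 at -0.81, Tenm1 (a teneurin of synaptic adhesion) at -0.36, Vegfa (a vascular growth factor) at -0.38, Pcdhga9 (a clustered protocadherin) at -0.57 and Il11 (a cytokine of the gp130 family) at -1.95. None of these 8 passed the threshold in edgeR. In DESeq2 6 of them passed, all but Pcdhga9 and Il11, with adjusted p of 6.90e-05 for Slc6a3, 0.000107 for Chil1 and 0.0102 to 0.0444 for the others. Chil1 also passed in edgeR without PEL_3d_GH 3 (adjusted p = 0.0412).

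**Figure D2:**
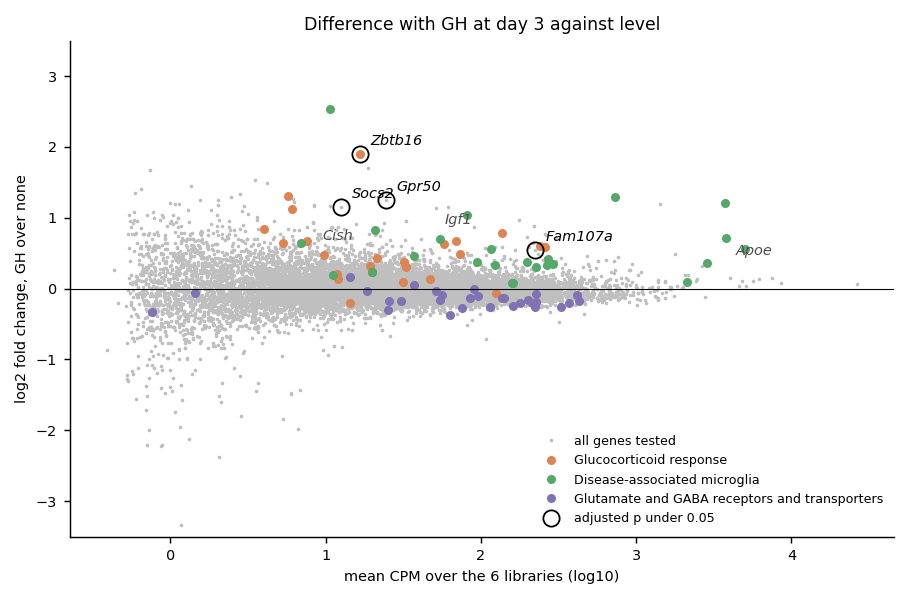
Log2 fold change of PEL_3d_GH over PEL_3d against the log10 of mean CPM over the 6 libraries for the 14798 genes tested, with members of 3 lists in colour, the 4 called genes circled, and Igf1, Cish and Apoe also named. The called genes are not those with the highest fold changes, as Zbtb16 is at 1.91 and Fam107a, with an SE of 0.06, at 0.55, while Atp6v0d2, at 2.53 with an SE of 0.50, is not called.

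Genes of phagocytic microglia and of the lysosome formed another group with log2 fold changes mostly above 0 and a wider spread between the GH libraries. All 25 tested markers of disease-associated microglia had a log2 fold change above 0, with a median of 0.38, and 15 were higher and 0 lower at an unadjusted p under 0.05 (60% and 0%). None passed the adjusted threshold in edgeR, and 3 passed in DESeq2. Their summed level was 15640, 13520 and 19060 CPM in PEL_3d and 28050, 27380 and 19070 CPM in PEL_3d_GH. Thus PEL_3d_GH 1 and 2 were far above all other libraries, and PEL_3d_GH 3 was level with PEL_3d 3. Leaving out 1 library left 9 to 20 members higher at an unadjusted p under 0.05, and without PEL_3d_GH 3 there were 7 past the adjusted threshold. Of all genes, 9.68% were higher at an unadjusted p under 0.05 without PEL_3d_GH 3.

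Apoe, the main lipid carrier of the brain, was at 2901, 2647 and 3130 CPM in PEL_3d and at 5171, 4920 and 4088 CPM in PEL_3d_GH (log2 fold change 0.71, SE 0.11, edgeR adjusted p = 0.116). Here all GH libraries were higher. Trem2, the lipid-sensing receptor of microglia, and Tyrobp, its signalling partner, were at log2 fold changes of 0.50 and 0.55, also with groups that did not overlap. Gpnmb, a glycoprotein of lysosome-rich phagocytes, was at 475, 217 and 581 CPM without GH and 1242, 1152 and 727 CPM with GH. Spp1 (osteopontin) was at 1873, 1349 and 3583 CPM without GH and 6483, 6203 and 2991 CPM with GH, so that PEL_3d_GH 3 lay below PEL_3d 3. Lpl, a lipase of lipid uptake, showed the same order, at 45.2, 48.7 and 67.2 CPM without GH and 126, 138 and 66.4 CPM with GH. Clec7a, a receptor for fungal glucans, and Itgax, an integrin, were at log2 fold changes of 0.70 and 0.82 with groups that overlapped. Cd5l, a scavenger protein of macrophages, was at 10.7, 5.60 and 9.85 CPM without GH and 41.8, 24.1 and 19.9 CPM with GH, a log2 fold change of 1.71 that did not pass in edgeR (adjusted p = 0.197).

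Of 33 lysosomal genes, 19 were higher and 0 lower at an unadjusted p under 0.05 (57.6% and 0%), 32 lay above 0, and the median log2 fold change was 0.30. None passed the adjusted threshold in edgeR and 1 passed in DESeq2. The summed level was 16160, 14230 and 17990 CPM in PEL_3d and 23070, 22900 and 17750 CPM in PEL_3d_GH, and the groups overlapped. Without 1 library the number higher at an unadjusted p under 0.05 ranged from 7 to 29. It was 7 without each of PEL_3d 2, PEL_3d_GH 1 and PEL_3d_GH 2. The highest number was without PEL_3d_GH 3, where 9.68% of all genes were higher at that p. Ctsd, the aspartic protease cathepsin D, was at 4112, 3510 and 4535 CPM without GH and 6623, 6598 and 4750 CPM with GH. Atp6v0d2, a subunit of the proton pump, was at 3.07, 1.02 and 5.33 CPM without GH and 21.9, 24.1 and 8.86 CPM with GH (log2 fold change 2.53, SE 0.50, edgeR adjusted p = 0.286). The lipase Lipa was at 105, 90.1 and 130 CPM without GH and 180, 186 and 123 CPM with GH. Hexa, a subunit of the enzyme that degrades gangliosides, was at a log2 fold change of 0.43, and Lamp1, a protein of the lysosomal membrane, at 0.26. In edgeR without PEL_3d_GH 3, the members past the adjusted threshold included Ctsd, Atp6v0d2, Lipa and Hexa (adjusted p of 0.0247 to 0.0494). The lists of the lysosome and of disease-associated microglia share 7 genes, which is 21.2% of the former and 28% of the latter.

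Markers of microglia at rest did not move in one direction. Of 20 tested, 4 were higher and 2 lower at an unadjusted p under 0.05 (20% and 10%, beside 3.86% and 2.94% of all genes). In DESeq2, 2 higher and 0 lower passed the adjusted threshold, and the median log2 fold change was -0.03. Mertk, a receptor for apoptotic cells, was at 45.1, 39.5 and 47.3 CPM without GH and 75.6, 74.4 and 54.5 CPM with GH, whereas P2ry13, a nucleotide receptor, was at 30.9 to 35.9 CPM without GH and 26.9 to 30.1 CPM with GH. The markers of border macrophages were all above 0 (13 of 13, median 0.41), but 4 were higher at an unadjusted p under 0.05, and 0 to 7 when 1 library was left out, with 0 without PEL_3d_GH 1 and 1 without PEL_3d 2 or PEL_3d_GH 2. Lyve1, a hyaluronan receptor of such macrophages, was at a log2 fold change of 0.82 (SE 0.27). Of 19 complement genes 5 were higher and 0 lower at an unadjusted p under 0.05 (26.3% and 0%). C1qb was at 269, 238 and 331 CPM without GH and 402, 396 and 332 CPM with GH. C1qa and C1qc, the other chains of the recognition molecule C1q, were at log2 fold changes of 0.40 and 0.35. C3, which all complement pathways cleave, was at 21.03, 18.5 and 23.9 CPM without GH and 37.8, 39.2 and 19.2 CPM with GH.

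The summed level of the blood leukocyte genes tested was 775.9, 514.5 and 940.4 CPM in PEL_3d and 811.4, 987.9 and 459.6 CPM in PEL_3d_GH, so that the groups overlapped, and most of it was Fn1, a matrix protein that monocytes share with other cells. Of 27 listed, 15 were tested, and the median log2 fold change was -0.57. At an unadjusted p under 0.05, 1 was higher and 4 lower (6.67% and 26.7%, beside 3.86% and 2.94% of all genes). The 4 lower ones included neutrophil genes, with S100a9, a calcium-binding protein, at 1.69, 3.69 and 3.84 CPM without GH and 1.0, 1.33 and 1.31 CPM with GH, and Ngp at a log2 fold change of -1.75 (SE 0.47). Chil3, a chitinase-like protein, was at 11.0, 14.4 and 23.4 CPM without GH and 9.06, 10.5 and 8.01 CPM with GH, and Cxcr2, a neutrophil chemokine receptor, was at or below 1.5 CPM throughout. Cd4 was the higher one, at 0.241 to 0.929 CPM and 1.25 to 1.69 CPM. Of 31 interferon-stimulated genes, 27 lay below 0 with a median log2 fold change of -0.22, but this rested on PEL_3d 3. Their summed level was 407, 445 and 788 CPM in PEL_3d and 512, 467 and 502 CPM in PEL_3d_GH. Without PEL_3d 3 the median was 0.27, and 30 of 31 lay above 0. Among injury cytokines 1 of 23 was higher and 3 lower at an unadjusted p under 0.05. The lower ones were Il11, Clcf1, another ligand of the gp130 receptors, at 3.13, 4.64 and 2.73 CPM without GH and 1.81, 1.46 and 1.53 CPM with GH, and Il1b, which was below 3 CPM in every library.

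**Figure D3:**
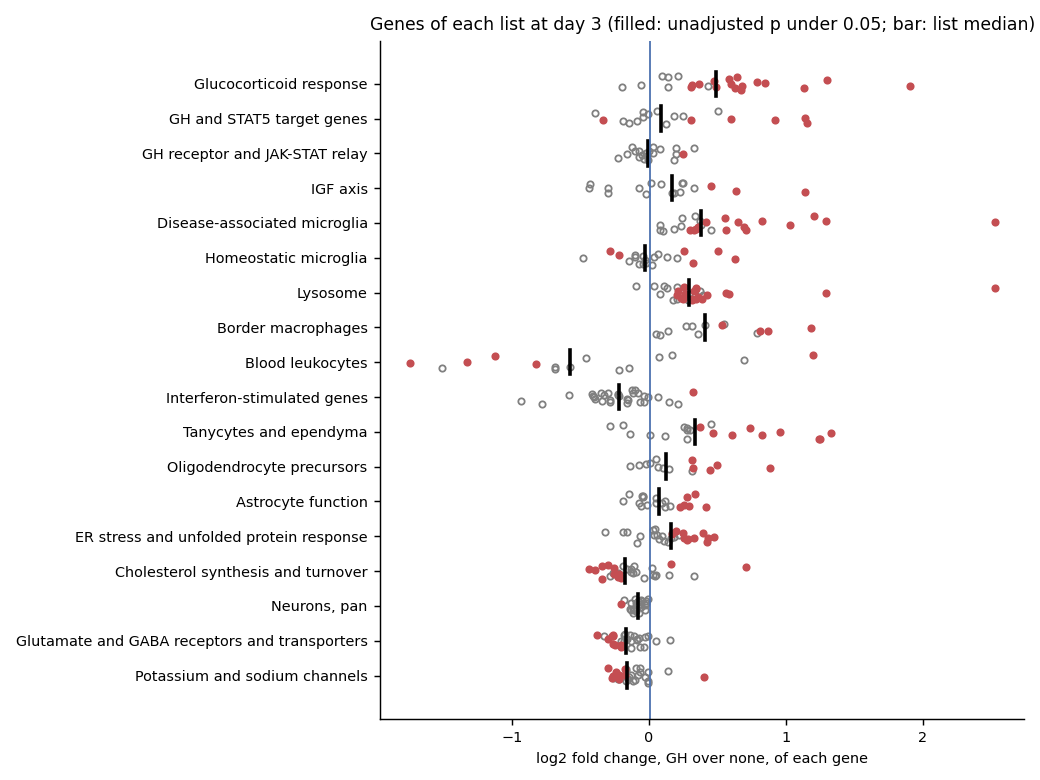
Log2 fold change of each tested member of 18 of the gene lists, with PEL_3d_GH over PEL_3d on the horizontal axis and a list on each line. Filled points have an unadjusted p under 0.05, the bar is the list's median and the vertical line the median of all genes, and the glucocorticoid list has its median at 0.49, the disease-associated microglia at 0.38 and the glutamate and GABA receptors at -0.17.

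Of the 20 tested markers of tanycytes and ependyma, Gpr50 was called (4 genes in DESeq2, with Mia, Crym and Col23a1), 9 were higher and 0 lower at an unadjusted p under 0.05 (45% and 0%, beside 3.86% and 2.94% of all genes), and the median log2 fold change was 0.34. In 7 the groups did not overlap (35%, beside 6.24% of all genes). The higher ones were mostly markers of tanycytes, with Foxj1, a marker of ciliated ependyma, among them. Mia was at 1.81, 1.27 and 1.67 CPM without GH and 3.63, 4.0 and 4.37 CPM with GH (log2 fold change 1.33, edgeR adjusted p = 0.180). Crym, a thyroid hormone-binding protein, was at 7.29, 10.4 and 7.62 CPM without GH and 16, 16.8 and 12.3 CPM with GH. The growth factor Fgf10 was at a log2 fold change of 0.60, the collagen Col23a1 at 0.96 and the deiodinase Dio2 at 0.74, the last with groups that overlapped. Rax, the transcription factor that marks tanycytes, was at 1.63, 1.40 and 0.558 CPM without GH and 2.31, 3.43 and 2.84 CPM with GH. The summed level of the whole list was 1067, 1012 and 1021 CPM in PEL_3d and 1286, 1371 and 855.5 CPM in PEL_3d_GH, so that PEL_3d_GH 3 was the lowest library for the sum. Among the 30 hypothalamic transcription factors, 4 were higher and 1 lower at an unadjusted p under 0.05 (13.3% and 3.33%). Rax, Six3, Tbx3 and Nkx2-1 were higher and Onecut2 lower.

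Of 28 tested genes of the unfolded protein response, which include chaperones of the endoplasmic reticulum, 11 were higher and 0 lower at an unadjusted p under 0.05 (39.3% and 0%). The log2 fold changes ran from -0.32 to 0.48 with a median of 0.16, and 5 lay below 0. None passed the adjusted threshold in edgeR and 1 passed in DESeq2. The summed level was 4464, 4553 and 4667 CPM in PEL_3d and 5207, 5444 and 4793 CPM in PEL_3d_GH, and the groups did not overlap. Leaving out 1 library left 6 to 14 members higher at an unadjusted p under 0.05, with 6 without PEL_3d_GH 2. Hspa5, the chaperone BiP, was at 528, 562 and 567 CPM without GH and 715, 818 and 652 CPM with GH, a log2 fold change of 0.40. Manf, a secreted protective factor of the same response, was at a log2 fold change of 0.42 and Pdia4, a disulfide isomerase, at 0.43. Xbp1, a transcription factor that induces such chaperones, was at 0.29.

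Of 14 markers of oligodendrocyte precursors 5 were higher and 0 lower at an unadjusted p under 0.05 (35.7% and 0%, beside 3.86% and 2.94% of all genes). The list's median was 0.12. Gpr17, a receptor of cells about to become oligodendrocytes, was at 137, 163 and 166 CPM without GH and 334, 325 and 202 CPM with GH (log2 fold change 0.89, SE 0.17, edgeR adjusted p = 0.286), and it passed in DESeq2. Of 23 myelin genes 1 was higher and 4 lower (4.35% and 17.4%), with Opalin at -0.33 and a median of -0.06. Of 20 genes of astrocyte function 6 were higher and 0 lower, with Mlc1, a membrane protein of astrocyte end-feet, at a log2 fold change of 0.34 that passed in DESeq2 but not in edgeR, and of 24 markers of reactive astrocytes 1 was higher and 0 lower. Genes of cholesterol synthesis and turnover had 2 of 30 higher and 10 lower at an unadjusted p under 0.05 (6.67% and 33.3%) and a median log2 fold change of -0.18. Insig1, a regulator of sterol sensing, was at 61.4, 65.6 and 56.9 CPM without GH and 46.6, 48.1 and 50.6 CPM with GH. The sterol carrier Stard4 was at a log2 fold change of -0.40. The 2 higher members included Apoe, the 1 member past the adjusted threshold in DESeq2, and the summed level of the others was 1924, 1920 and 1884 CPM in PEL_3d and 1792, 1835 and 1770 CPM in PEL_3d_GH.

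Receptors and channels of neurons had no called gene. Of 30 receptors and transporters for glutamate and GABA, 0 were higher and 10 lower at an unadjusted p under 0.05 (0% and 33.3%), and the median log2 fold change was -0.17. The summed level was 4309, 4458 and 4236 CPM in PEL_3d and 3579, 3655 and 4297 CPM in PEL_3d_GH, with PEL_3d_GH 3 within the range of PEL_3d. The number lower at an unadjusted p under 0.05 ranged from 3 without PEL_3d_GH 1 to 21 without PEL_3d_GH 3. It was 5 without PEL_3d 2 or PEL_3d_GH 2 and 6 without PEL_3d 3. Of all genes, 9.41% were lower at that p without PEL_3d_GH 3. Grm5, a metabotropic glutamate receptor, was at 130, 124 and 123 CPM without GH and 99.6, 102 and 112 CPM with GH. Gria2, a subunit of the AMPA receptor, was at a log2 fold change of -0.20. Of 30 potassium and sodium channel genes, 1 was higher and 8 lower (3.33% and 26.7%), with a median of -0.16. The higher one was Kcnn2 at 0.40, and the lower ones included Kcnma1, a calcium-activated potassium channel, at -0.26. Their summed level was 2143, 2174 and 2115 CPM in PEL_3d and 1797, 1883 and 2112 CPM in PEL_3d_GH, so that PEL_3d_GH 3 was just below the lowest PEL_3d library. All 24 general neuron markers lay below 0, with a median of -0.08, and 1 of them, the synaptic vesicle protein Syt1, was lower at an unadjusted p under 0.05. Without PEL_3d_GH 3 that number was 14, in a setting where 9.41% of all genes were lower at that p. The summed level of the neuron markers was 9753, 10560 and 9505 CPM in PEL_3d and 8669, 8517 and 10680 CPM in PEL_3d_GH. The groups thus overlapped, and PEL_3d_GH 3 was the highest library. Lists that follow RNA quality also lay to one side in these libraries. Of 13 mitochondrially encoded genes 12 lay above 0 with a median of 0.14, and of 40 ribosomal protein genes 39 lay above 0 with a median of 0.08, with 0 higher and 0 lower at an unadjusted p under 0.05 in both. Their summed levels overlapped between the groups, at 64290, 71030 and 74080 CPM in PEL_3d and 76570, 72600 and 75540 CPM in PEL_3d_GH for the mitochondrial genes and 9312 to 11080 CPM and 10480 to 11040 CPM for the ribosomal ones. The medians of these lists were thus about as far from 0 as that of the neuron markers, or farther, and their part in the results above was not tested.

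The hypothalamic peptides showed no common direction. Of 31 tested, 3 were higher and 2 lower at an unadjusted p under 0.05 (9.68% and 6.45%, beside 3.86% and 2.94% of all genes). The median log2 fold change was 0.01. Ghrh was at 2.47, 2.04 and 1.61 CPM without GH and 3.00, 2.35 and 3.41 CPM with GH, a log2 fold change of 0.52 (SE 0.26), and Sst was at 90.4, 89.6 and 84.1 CPM and 103, 71.7 and 137 CPM. Their groups overlapped. Vip, which encodes vasoactive intestinal peptide, was at 12.4, 8.52 and 12.5 CPM without GH and 17.1, 21.5 and 16.2 CPM with GH. Nmb, which encodes neuromedin B, and Agrp, the feeding peptide, were at log2 fold changes of 0.77 and 0.96, from levels below 4 CPM. Gal, which encodes galanin, was at 120, 168 and 111 CPM without GH and 111, 42.4 and 90.7 CPM with GH. Oxt and Avp are made by the neurons whose axons run in the cut stalk. Avp was at 18.02, 16.2 and 12.4 CPM without GH and 6.69, 60.8 and 12.7 CPM with GH, and Oxt at 36.0, 41.7 and 15.9 CPM and 11.9, 29.2 and 36.8 CPM. The groups overlapped in both, at log2 fold changes of 0.78 (SE 0.64) for Avp and -0.26 (SE 0.41) for Oxt.

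The libraries were also compared by their leading components. PC1 held 37.9% of the variance of log2 CPM, and its values were -3.98, -24.8 and 5.74 in PEL_3d and 13.8, 26.2 and -17.1 in PEL_3d_GH. It thus did not separate the groups, and PEL_3d_GH 3 lay on the side of PEL_3d 2. PC2 held 21.3% and separated the groups, with 8.81, 9.28 and 16.6 in PEL_3d and -8.43, -3.74 and -22.5 in PEL_3d_GH. The summed levels of the listed markers of the thalamus, the striatum, and the hippocampus and cortex overlapped between the groups. Those of the striatum were at 528.5 to 585.1 CPM in PEL_3d and 491.0 to 599.7 CPM in PEL_3d_GH. Those of the hippocampus and cortex were at 591.2 to 642.7 CPM and 544.3 to 672.0 CPM, and those of the thalamus at 596.9 to 658.3 CPM and 577.0 to 639.7 CPM. In each, PEL_3d_GH 3 was the highest of the GH libraries. The cell cycle list was at 1025 to 1163 CPM and 760.8 to 1349 CPM, with PEL_3d_GH 3 lowest. The transcript of GH itself was under the count filter, with 0, 8 and 95 counts in PEL_3d and 1, 0 and 0 in PEL_3d_GH, and that of prolactin had 0, 13 and 9 and 5, 2 and 0 counts. The part of tissue outside the hypothalamus in the results above was not tested.

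**Figure D4:**
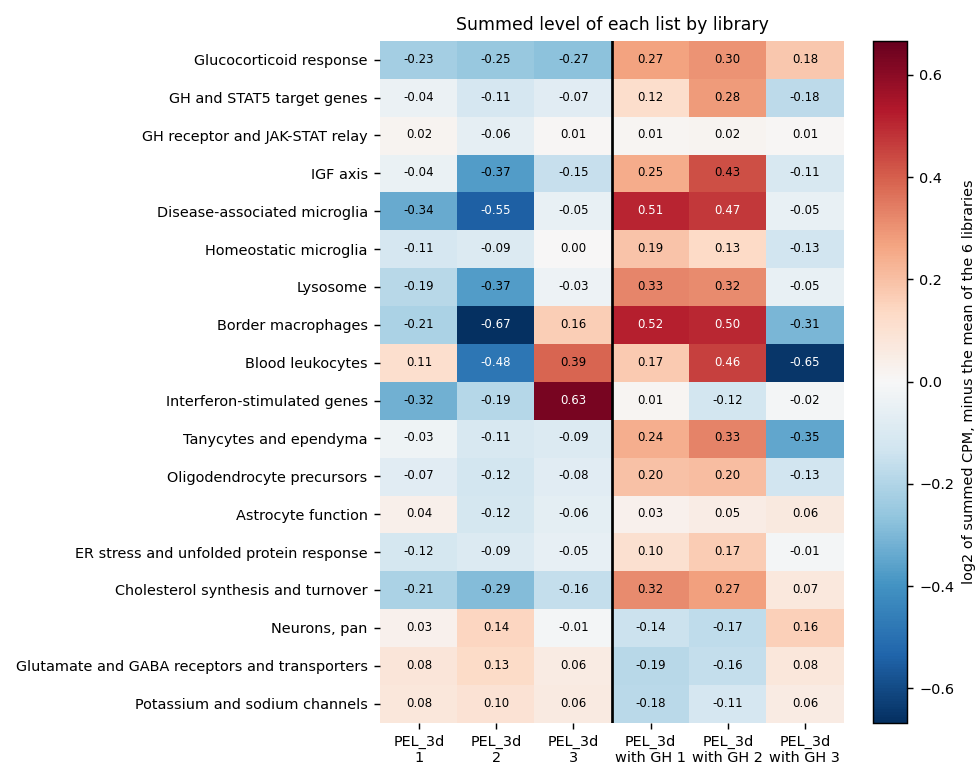
Summed CPM of 18 gene lists in the 6 libraries, as log2 with the mean of the 6 libraries subtracted, so that each line of cells is centred on 0. The glucocorticoid list is below 0 in all PEL_3d libraries (-0.27 to -0.23) and above 0 in all PEL_3d_GH libraries (0.18 to 0.30), while microglial and lysosomal lists are high in PEL_3d_GH 1 and 2 and not in PEL_3d_GH 3.

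Leaving out PEL_3d_GH 3 raised the calls to 48 higher (0.322%) and 8 lower (0.0536%), and the unadjusted p was then under 0.05 for 9.68% of genes in the higher and 9.41% in the lower direction. DESeq2, with all 6 libraries, called 48 higher (0.267%) and 9 lower (0.0501%). Both sets held the 4 genes called by edgeR and had 25 genes in common. Beside the 4, the shared genes included Igf1, Apoe, Fkbp5, Tsc22d3, Slc2a1, Lag3, Mt1, Mt2, Chil1, Adipor2, Cd5l, Ctsd, Mertk, Gpr17 and Hspa5.

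By KEGG term, as annotated in the deposited table, the terms with the largest share of genes higher at an unadjusted p under 0.05 were the lysosome (32 of 123 genes, 26%) and cholesterol metabolism (8 of 34, 23.5%), over 291 terms with 20 to 300 tested genes. Antigen processing and presentation had 11 of 57 higher and protein processing in the endoplasmic reticulum 18 of 159. On the lower side, beside 2.94% of all genes, the largest shares were in nicotine addiction (8 of 34, 23.5%), a term made of transmitter receptor genes, terpenoid backbone biosynthesis (3 of 22, 13.6%), insulin secretion (9 of 72, 12.5%) and African trypanosomiasis (3 of 24, 12.5%). The GABAergic synapse had 9 of 79 (11.4%) and the glutamatergic synapse 10 of 102 (9.8%). The term for growth hormone synthesis, secretion and action had 4 higher and 5 lower of 105, and JAK-STAT signaling 6 higher and 1 lower of 103, shares of 3.81% and 5.83% higher beside 3.86% of all genes. Oxytocin signaling had 4 higher and 6 lower of 137.

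GH-treated groups were also labelled at day 10 after the lesion and in Sham mice, which had no lesion. Whether GH was given in the same way in these settings is not stated. At day 10, GH called 0 of 14763 genes in edgeR, with 550 higher and 356 lower at an unadjusted p under 0.05. In Sham mice it called 0 of 14404, with 338 higher and 449 lower, or, with the library labelled Sham 1 left out, 116 called higher and 43 called lower. That library stood far from the other Sham libraries, with Avp at 0.287 CPM beside 81.2 and 128 CPM in Sham 2 and 3. Oxt was at 0.861 CPM beside 48.1 and 119 CPM. Prox1, from the list of hippocampus and cortex, was at 149.8 CPM beside 63.0 and 51.3 CPM. Values for Sham mice with all libraries include this library, and why it differs was not tested. The difference of the GH effect between day 3 and day 10 passed the threshold for 0 of 15091 genes in edgeR and in DESeq2, with 153 higher and 287 lower at an unadjusted p under 0.05. Between day 3 and Sham it passed for 0 of 15035 in edgeR (696 and 570 at an unadjusted p under 0.05) and for 23 in DESeq2, and without Sham 1 for 7 of 15164 (0.0462%).

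Of the called genes, Zbtb16 had a log2 fold change of 1.21 at day 10, where it was at 6.62, 9.09 and 12.5 CPM without GH and 10.9, 21.4 and 32.7 CPM with GH, and in Sham mice of 0.08 with all libraries and 0.89 without Sham 1. Socs2 was at 0.77 at day 10, and in Sham mice at 0.29 with all libraries and 0.82 without Sham 1. Fam107a was at 0.33 at day 10, and in Sham mice at 0.18 and 0.39. For none of these 3 genes did the difference between day 3 and either setting pass the threshold in edgeR, with unadjusted p-values for day 3 against Sham of 0.0153, 0.121 and 0.104 with all libraries and 0.0158, 0.393 and 0.218 without Sham 1. Gpr50 was at -0.39 at day 10, and in Sham mice at 0.32 with all libraries and -0.20 without Sham 1. Its effect at day 3 exceeded that in Sham mice by 0.91 with all libraries (SE 0.84, edgeR adjusted p = 0.700) and by 1.43 without Sham 1 (SE 0.24, edgeR adjusted p = 0.0525). It exceeded that at day 10 by 1.62 (SE 0.50, unadjusted p = 0.00629), which did not pass. In a joint scaling of all hypothalamic groups, Gpr50 was at 42.7 and 24.9 CPM in Sham 2 and 3, 12.6 to 15.5 CPM in PEL_3d and 32.5 to 36.2 CPM in PEL_3d_GH, and Fam107a at 270 and 235 CPM, 177 to 183 CPM and 255 to 269 CPM. With GH at day 3 both thus lay within the range of, or close to, Sham 2 and 3. Sham 1 lay outside that range, at 2.80 CPM for Gpr50 and 384 CPM for Fam107a. Gpr50 also varied widely between libraries at day 10. Its mean was 34.4 CPM (SD 18.8) in PEL_10d and 26.2 CPM (SD 8.91) in PEL_10d_GH. Whether GH brought either gene back to its level in Sham mice was not tested. Igf1 was at 0.44 at day 10, and in Sham mice at 0.72 with all libraries and 0.86 without Sham 1. Tsc22d3 was at 0.55 at day 10, and in Sham mice at 0.84 with all libraries and 0.65 without Sham 1 (edgeR adjusted p = 0.697 and 0.00705). Fkbp5 was at 0.69 at day 10, and in Sham mice at 0.11 with all libraries and 0.32 without Sham 1. Its effect at day 3 exceeded that in Sham mice by 0.51 with all libraries and 0.29 without Sham 1 (edgeR unadjusted p = 0.0363 and 0.0474, adjusted p = 0.581 and 0.469). Other genes named with the glucocorticoid list also had effects elsewhere. Hif3a was at 1.83 at day 10 and 2.03 in Sham mice without Sham 1, beside 1.30 at day 3. Per1 was at 0.36 and 0.61, beside 0.37, and Plin4 at 1.13 and 0.96, beside 1.13. Mt1 was smaller elsewhere, at 0.33 and 0.35, beside 0.58. For none of these genes did the difference from day 3 pass in edgeR.

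**Figure D5:**
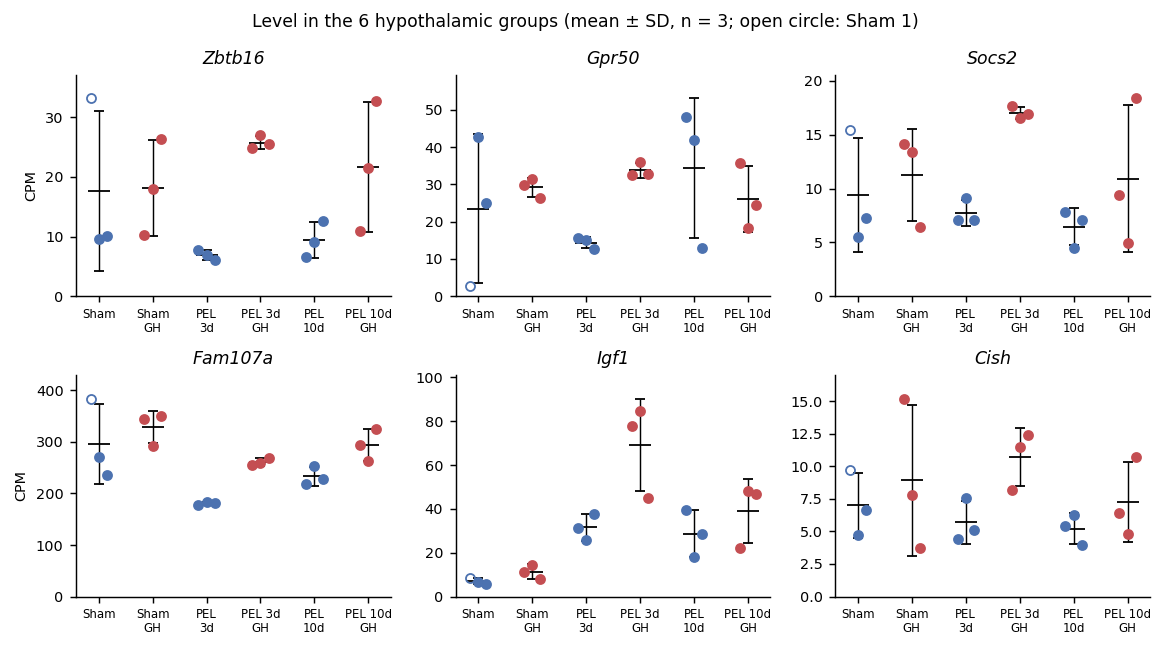
CPM of genes named in the text in the Sham, PEL_3d and PEL_10d groups without and with GH, 3 libraries each, with the library labelled Sham 1 as an open circle and bars for the mean and SD. Zbtb16 is higher with GH in the PEL_3d groups without overlap (6.11 to 7.79 against 24.8 to 27.0 CPM in this joint scaling), whereas at day 10 its groups overlap.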

How the data were processed

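RNA of hypothalamic tissue was sequenced with an mRNA-Seq library protocol. Per the study's methods, reads were aligned with Hisat2 and counted with featureCounts; the labels name GRCm38 and mm10, and whether counting used strand is not stated. The authors deposited 1 table with an expected count (an estimated read count) and an FPKM value, which is scaled by gene length and library size, per gene and sample. The table holds 22274 genes, 22219 of them with a symbol in the GENCODE annotation, and 8.22% of the deposited counts are not whole and were rounded.

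The 6 libraries were fitted alone with edgeR 4.0.16 in R 4.3.3 (TMM, filterByExpr with a minimum count of 10, quasi-likelihood test, Benjamini-Hochberg, threshold 0.05). This was chosen in place of the DESeq2 test of the study's methods, which was run as an alternative (DESeq2 1.42.0), as were other scaling, filters, a replicate block, 1 fit of all 18 hypothalamic libraries and leaving out each library. GH effects at day 3 and elsewhere were compared by an interaction term. Replicate numbers were taken from the labels and not treated as pairs. The comparison and the 53 gene lists were chosen with earlier results of these data known. Lists are described by counts and medians without a test of their own. Genes were named by a rule: called genes, the genes of lowest p per direction with groups that did not overlap and a mean CPM of at least 1, the genes of the GH axis with Avp and Oxt, and the leading member of each list described. The other genes were named after their values were seen, as members of a list. Some genes of the rule and the lists are not reported here. The edgeR comparison at day 3 was checked on simulated data. The DESeq2, interaction, block and 18-library fits were not. Tables were handled with pandas 2.3.3 and plots drawn with matplotlib 3.10.9 in Python 3.11.15.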

Additional observations from a re-analysis of the deposited data

Results flagged for a closer look

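The GH effect at day 3 differed from that in Sham mice in 7 of 15164 genes, when the library labelled Sham 1 was left out. With all libraries the same test in edgeR called 0, with 696 higher and 570 lower at an unadjusted p under 0.05, and DESeq2 called 23. For Kit, a receptor tyrosine kinase, the log2 fold change at day 3 minus that in Sham mice was -1.17 (SE 0.16, edgeR adjusted p = 0.0329). Kit was at 39.7, 35.5 and 42.1 CPM in PEL_3d and 29.9, 36.6 and 30.4 CPM in PEL_3d_GH, and at 30.9 and 32.6 CPM in Sham 2 and 3 and 67.7, 53.8 and 54.4 CPM in GH-treated Sham mice. The same test gave a difference of -0.83 for Ank1, a membrane skeleton protein, -1.16 for Rgs6, a regulator of G protein signalling, and -0.90 for Pygm, the muscle form of glycogen phosphorylase (edgeR adjusted p = 0.0329 for each). It gave -2.41 for Myo5b, a myosin motor, and -2.37 for Grm2, a metabotropic glutamate receptor (edgeR adjusted p = 0.0329 and 0.0452). Myo5b was at 8.20 and 6.39 CPM in Sham 2 and 3, at 137.7 CPM in Sham 1 and at 23.8 to 36.7 CPM in GH-treated Sham mice, beside 4.95 to 9.26 CPM in the 6 libraries of day 3. Each of these 6 genes rose with GH in Sham mice without Sham 1 (edgeR adjusted p between 0.000786 and 0.0114), and at day 3 each had a log2 fold change below 0 that did not pass. Apoe was the 1 gene with a larger effect at day 3. Its difference was 0.83 (SE 0.13, edgeR adjusted p = 0.0452), from a log2 fold change of 0.71 at day 3 and -0.14 in Sham mice without Sham 1. Apoe was at 1891 and 1952 CPM in Sham 2 and 3 and at 1736, 1665 and 1800 CPM in GH-treated Sham mice. With Sham 1 included, none of the 7 genes passed in edgeR.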

How the results depend on the processing

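The number of genes higher with GH at day 3 was 4, and 48 in DESeq2, 8 without a filter on low counts, 0 in 1 fit of all hypothalamic libraries and 571 at an unadjusted p under 0.05. Leaving out 1 library gave 1 to 48, with 48 without PEL_3d_GH 3, 1 without PEL_3d 1 or PEL_3d_GH 1, and 2 without PEL_3d 3 or PEL_3d_GH 2. The number lower was 0, and 9 in DESeq2, 435 at an unadjusted p under 0.05 and 0 to 8 with 1 library left out, with 8 without PEL_3d_GH 3. With the replicate block 1 gene was higher (Zbtb16) and 0 lower, with adjusted p of 0.0724 for Gpr50, 0.354 for Socs2 and 0.511 for Fam107a, and same-numbered libraries of the groups did not deviate together (correlations of -0.07, -0.35 and -0.35), so that the numbers were not taken as pairs. DESeq2's size factors and a mean count of at least 50 each gave 4 higher, the same genes. Genes whose GH effect differed between day 3 and Sham numbered 0, and 23 in DESeq2, 1 in 1 fit of all hypothalamic libraries and 0 to 7 with 1 library left out, with 7 without Sham 1 and 1 without PEL_3d_GH 3; between day 3 and day 10 they numbered 0 in every alternative run. The cause of these differences was not tested. With 1 library left out, log2 fold changes crossed 0 for Stat5a (-0.26 to 0.11), Stat5b (-0.0851 to 0.0392), Jak2 (-0.0354 to 0.0125), Igf1r (-0.0213 to 0.0873), Sst (-0.0148 to 0.45), Avp (-0.68 to 1.24) and Oxt (-0.61 to 0.0821). Avp was below 0 without PEL_3d_GH 2. The other genes named kept their direction in these alternatives. All 53 list medians stayed within 1 SD of the list's level between replicates in DESeq2, with DESeq2's size factors, without a filter, with the block and in 1 fit of all libraries. With a mean count of at least 50, 1 list moved by more than that, and with 1 library left out 2 to 5 lists did. Genes with a mean near 1 CPM rest on few counts and are the least precise, and counting error is not the spread between replicates.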

Other observations

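Genes of the matrix and of connective tissue were mostly above 0. Of 32 matrix and remodelling genes 28 lay above 0, 3 were higher and 0 lower at an unadjusted p under 0.05 (3.86% and 2.94% of all genes tested), and the median log2 fold change was 0.22. Mmp13, a collagenase, was at 2.05, 0.827 and 2.48 CPM without GH and 7.06, 5.97 and 2.67 CPM with GH, and PEL_3d_GH 3 was again close to the libraries without GH. Of 19 genes of mural cells and fibroblasts 16 lay above 0 with a median of 0.24, and 2 were higher and 0 lower, with Col1a1, a fibrillar collagen, at 129, 60.7 and 167 CPM without GH and 214, 318 and 165 CPM with GH. Of 20 heat shock genes 3 were higher, with Hspa1b, an inducible chaperone, at 9.16, 9.16 and 12.3 CPM and 14.6, 19.8 and 15.5 CPM. Of 23 genes of the endothelium and the blood-brain barrier 2 were higher and 2 lower. Mfsd2a, a lipid transporter of that barrier, was at 22.9, 17.0 and 20.3 CPM without GH and 28.2, 28.1 and 40.2 CPM with GH, whereas Cldn5, a tight junction protein, was at 46.0 to 48.7 CPM and 33.2 to 42.1 CPM. None of these genes passed the adjusted threshold in edgeR, and Mfsd2a passed in DESeq2.

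Genes of axon injury and regeneration had 0 of 25 higher and 1 lower at an unadjusted p under 0.05, the adhesion molecule Chl1 at a log2 fold change of -0.33, which passed the adjusted threshold in DESeq2 but not in edgeR. Of 36 genes of the cell cycle and DNA replication, 0 were higher and 0 lower at an unadjusted p under 0.05, and the median was 0.08. Of 20 genes of MHC class I presentation the same count was 0 and 0, and of 18 chemokines 2 were higher, with Ccl3 at 3.80, 3.82 and 5.89 CPM without GH and 10.7, 8.51 and 4.89 CPM with GH. Of 42 nuclear genes of the respiratory chain 1 was higher, and of 22 genes of amyloid precursor processing 1 was higher (2.38% and 4.55%), which is near the 3.86% of all genes tested.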
